A study of Mus musculus with 309 samples.

Results

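The 10 genes described here are 4 ligands of the Notch receptors (Dll4, Dll1, Jag1 and Jag2), 2 receptors (Notch1 and Notch4), the Notch target Hey1, and 3 genes of secreted proteins made by endothelial tip cells (Apln, Esm1 and Angpt2). They were taken by symbol from the 55291 genes of a count table of mouse mammary tumours, and all 10 were present. The members were chosen by a rule that covered their measured changes in these data, with trametinib and with the other treatments. The trametinib changes are given below as a description, with no p-value for any member. For the other treatments p-values are given, and they are no independent test of the members. Poly(A) RNA had been sequenced from 309 tumours of 24 models, which the series title calls triple-negative. Of these, 64 tumours (18 models) were untreated, 65 (22 models) came from mice on trametinib, which blocks MEK, and 66 (22 models) from mice on erlotinib, which blocks the receptor EGFR. Another 66 (22 models) had been given carboplatin plus paclitaxel and 48 (16 models) anti-PD1 plus anti-CTLA4 antibodies. Most groups of one model and one treatment held 3 tumours. The labels name each model and treatment and give no strain, age, dose or time of collection. They do not say whether the untreated mice received a vehicle, or whether tumours of a model descend from 1 clone or from separate founders.

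Notch ligands on one cell bind Notch receptors on its neighbour, the receptor is cut by ADAM proteases and gamma-secretase, and its inner part joins the DNA-binding protein Rbpj to switch on targets such as Hey and Hes genes. In a sprouting vessel, VEGF raises Dll4 in the leading tip cell, and Dll4 acts through Notch on the cells behind it to keep them as stalk cells. Tip cells also release apelin, endocan (Esm1) and angiopoietin 2 (Angpt2). Notch4 is largely a receptor of endothelium, whereas Jag1, Jag2, Dll1, Notch1 and Hey1 are also made by epithelial and other cells of a tumour.

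The start regions of Dll4, Notch4 and Esm1 are shown as examples of a ligand, a receptor and a tip cell protein that were lower with trametinib in both comparisons below. They are the bases from 250 to 31 before the RefSeq start site (GRCm38.p6), 5′ to 3′ on the plus strand, which is the strand of all 3 genes. Capitals mark GGAA, the core bound by ETS factors, or its reverse complement TTCC.
Dll4, chr2:119325534-119325753: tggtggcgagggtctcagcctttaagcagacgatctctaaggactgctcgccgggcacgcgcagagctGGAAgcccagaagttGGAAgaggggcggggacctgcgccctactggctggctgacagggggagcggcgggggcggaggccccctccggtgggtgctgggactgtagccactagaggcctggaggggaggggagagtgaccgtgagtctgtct
Notch4, chr17:34564045-34564264: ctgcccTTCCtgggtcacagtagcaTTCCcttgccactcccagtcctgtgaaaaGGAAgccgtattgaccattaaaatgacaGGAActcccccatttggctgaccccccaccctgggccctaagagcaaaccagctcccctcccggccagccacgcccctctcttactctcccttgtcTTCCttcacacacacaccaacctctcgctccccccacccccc
Esm1, chr13:113209409-113209628: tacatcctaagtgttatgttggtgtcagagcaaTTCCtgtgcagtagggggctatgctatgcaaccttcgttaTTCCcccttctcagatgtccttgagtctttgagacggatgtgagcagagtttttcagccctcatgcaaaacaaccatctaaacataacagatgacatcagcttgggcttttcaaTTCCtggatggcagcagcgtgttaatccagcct
The Dll4 window holds 2 such cores, that of Notch4 5 and that of Esm1 3. A core of this kind is in 91.1% of 32851 windows of the same 220 bases in RefSeq, with a median of 2 a window, so its presence sets these windows apart from few others. Windows were found for 8 of the 10 members, 9 windows in all, since Dll1 has 2 starts. On either strand, TGGGAA (Rbpj; in 19.4% of all windows), CCGGAA (an ETS site that contains the core; 9.47%) and ACGTG (HIF; 14.4%) had no match in the 9 windows. TGANTCA (AP-1; 6.12% of all windows) had 1 match, in a Dll1 window.

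Library totals ran from 12.1 M to 226 M estimated counts (M), with medians of 39.3 M with trametinib, 34.3 M with erlotinib and 76.9 M in untreated tumours. No member was at 0 in any of the 309 libraries. Levels are given as CPM, the usual library-scaled counts, after TMM scaling, and differences on the log2 scale. All 17 endothelial identity genes listed (Pecam1, Cdh5, Emcn and others) had counts in every tumour, with Pecam1 at 13.7 to 202 CPM. No 2 tumours of a group agreed within sampling noise. For 3 KPB25L-UV tumours given chemotherapy, the library name begins with KPB25L, and they were kept under their title. In these bulk tumours, fewer cells of a type and less RNA per cell cannot be told apart. Per kilobase of exon, the median level in the untreated tumours was highest for Apln (12.4 CPM), then Jag1 (6.35) and Notch1 (6.19), and lay between 2.44 (Hey1) and 4.13 (Esm1) for the other 7.

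The first comparison set trametinib beside erlotinib, over 65 and 66 tumours of 22 models, whose arms lie close together in library number. Dll4, the tip cell ligand (chromosome 2, 119325784 to 119335962, mm10), was the member with the lowest value against erlotinib. Its CPM ran from 2.18 to 20.0 with trametinib (median 6.6) and from 3.68 to 29.6 with erlotinib (median 13.0). The log2 difference was -0.999 ± 0.0903 (SE of the edgeR fit with a term for the model), and Dll4 was lower in 20 of 22 models. In 15 of the 21 models with 3 tumours in both arms, every trametinib tumour lay below every erlotinib tumour. Over all genes and models, 14.3% of comparisons separated in this direction. Members below the adjusted p threshold of 0.05 numbered 9, all lower, beside 12.5% of 16778 genes called lower and 25.4% called in either direction. The choice of members used this contrast, so that count is no result about them. The median log2 difference of the 10 was -0.36, and that of all tested genes 0.00249.

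Dll4 in p53RB-626 shows the widest gap. The 3 trametinib tumours held 3.38, 3.10 and 2.81 CPM, the 3 erlotinib tumours 29.0, 19.6 and 17.9, and the 6 untreated tumours 13.1 to 27.9, with a median of 19.6. The trametinib tumours stood apart from both other arms, which overlapped each other. In T11-APOBEC, the values were 8.37, 4.91 and 8.18 CPM with trametinib, 23.1, 26.4 and 21.9 with erlotinib, and 16.9, 19.8 and 27.6 untreated, again with no overlap. In 4T1, a transplantable mouse mammary carcinoma line, they were 7.69, 5.80 and 6.6 against 16.2, 15.3 and 21.0 with erlotinib. The 2 exceptions were MMTV-PyMT, at 10.9, 15.3 and 11.2 with trametinib against 8.47, 12.4 and 10.6 with erlotinib, and 2153. In 2153, trametinib tumours held 5.51, 4.81 and 4.87 CPM and erlotinib tumours 3.68, 4.74 and 4.22, so every trametinib value was higher. There both treated arms lay below the untreated tumours, at 9.53, 6.27 and 11.4.

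**Figure D1:**
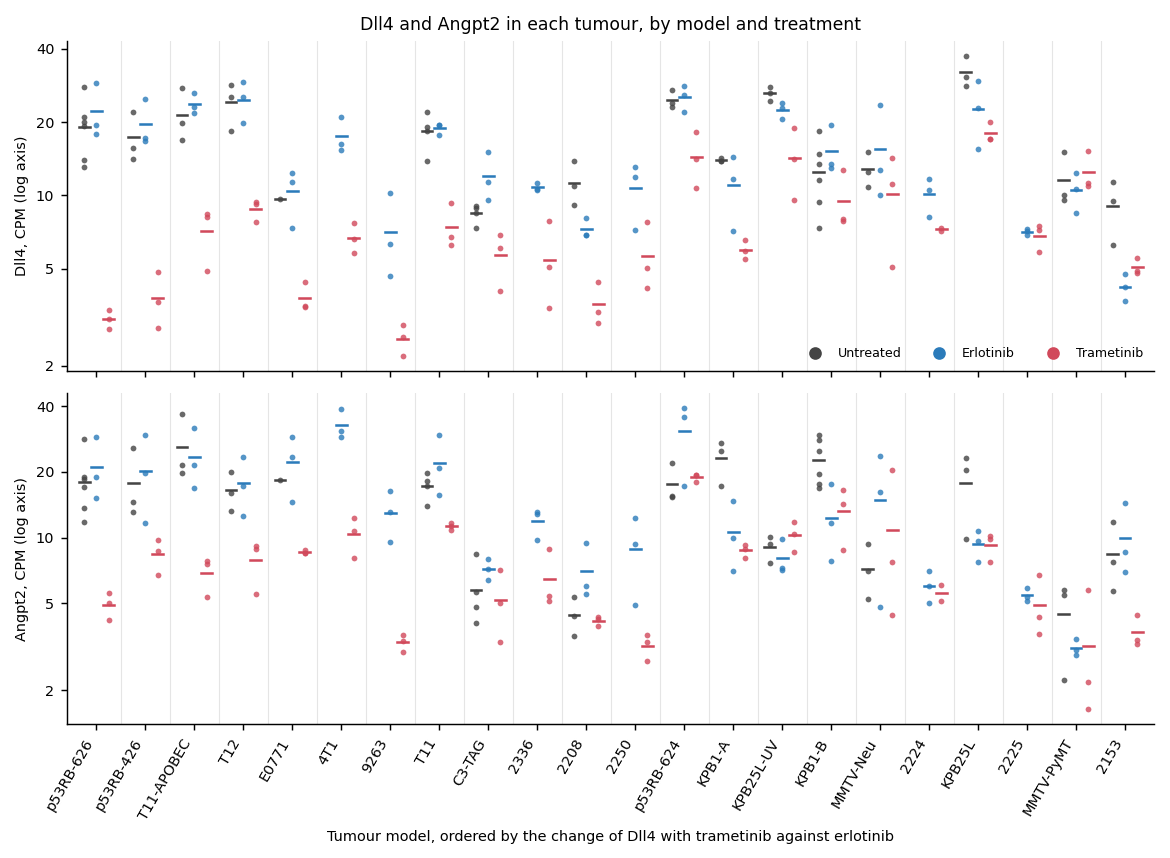
Dll4 and Angpt2 in CPM (log axis) in every untreated, erlotinib and trametinib tumour of the 22 models with both inhibitors. Each point is 1 tumour and each bar a group mean. Dll4 with trametinib lies below erlotinib in 20 models, the exceptions being 2153 and MMTV-PyMT at the right, and Angpt2 also in 20.

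The other 3 ligands were lower by much less and not in every model. Dll1 (chromosome 17, 15367354 to 15376872) had a log2 difference of -0.24 ± 0.0946, Jag1 (chromosome 2, 137081456 to 137116644) -0.23 ± 0.0735 and Jag2 (chromosome 12, 112907819 to 112929776) -0.24 ± 0.0672. They were lower in 14, 15 and 14 of the 22 models. The lowest Dll1 difference, -2.28, was in p53RB-426, where the CPM were 1.70, 2.09 and 2.22 with trametinib and 12.8, 10.8 and 6.79 with erlotinib. The highest, 0.97, was in T11. For Jag1 the lowest was in 2208, at 13.1, 15.8 and 18.4 CPM with trametinib against 40.9, 37.0 and 40.7 with erlotinib and 50.0, 51.7 and 43.0 untreated. The 2208 tumours with trametinib were thus lower in Jag1 than both other arms. Jag2 in 2208 went the other way, at 18.4, 17.2 and 15.5 CPM with trametinib against 10.5, 8.66 and 8.08 with erlotinib. In p53RB-626 it was at 7.80, 5.05 and 6.71 with trametinib, 18.1, 15.1 and 13.9 with erlotinib and 13.4 to 17.3 untreated, so a ligand that was higher with trametinib in one model was lower in another, without overlap in either.

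Of the receptors, Notch4 (chromosome 17, 34564268 to 34588503) was lower in 18 of 22 models, with a log2 difference of -0.56 ± 0.0799. Notch1 (chromosome 2, 26457903 to 26516663), the receptor shared by many cell types, had -0.21 ± 0.0685 and was lower in 14. Notch4 was furthest down in E0771, at 8.24, 7.82 and 8.70 CPM with trametinib against 23.2, 27.8 and 33.3 with erlotinib. In 10 of 21 models its 2 arms did not overlap with trametinib lower, beside 14.3% over all genes and models. In 2 models they did not overlap with trametinib higher, beside 14.0%. For Notch1 the lowest difference, -1.29, was in T11, at 37.3, 28.1 and 32.1 CPM with trametinib, 61.5, 79.3 and 100.1 with erlotinib and 51.3 to 82.5 in 4 untreated tumours, and the highest, 0.69, in 2208. T12 had the highest untreated Notch4 of the 16 models compared and little difference: 90.6, 117 and 98.7 CPM with trametinib, 127, 99.4 and 115 with erlotinib and 92.7, 82.3 and 115 untreated.

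Hey1, a transcriptional repressor switched on by Notch (chromosome 3, 8663359 to 8667256), had a log2 difference of -0.47 ± 0.105 and was lower in 16 of 22 models. In p53RB-626 it was at 0.916, 1.06 and 0.862 CPM with trametinib and 5.79, 4.76 and 5.21 with erlotinib, with no overlap. In MMTV-Neu, whose tumours express the Neu receptor under a mammary promoter, it was higher than with erlotinib (log2 difference 0.88), and the arms overlapped. Erlotinib against untreated tumours had a log2 difference of -2.31 in Hey1 in that model. For trametinib against erlotinib without the term for the model, the Hey1 value was -0.09 ± 0.387, and the cause was not tested.

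Among the tip cell proteins, Angpt2, which loosens vessels by opposing Angpt1 at the receptor Tek (chromosome 8, 18690263 to 18741562), was lower in 20 of 22 models. Its log2 difference was -0.84 ± 0.101, with medians of 7.56 CPM with trametinib and 12.0 with erlotinib. In 9263 the trametinib tumours held 3.6, 3.38 and 3.01 CPM and the erlotinib tumours 9.52, 16.4 and 13.1. In 12 of 21 models the arms separated with trametinib lower, and in none with trametinib higher, beside 14.3% and 14.0% over all genes and models. Esm1, a secreted proteoglycan (chromosome 13, 113209659 to 113218098), had -0.66 ± 0.150 and was lower in 15 models. Its range was wide, from -2.86 in 9263 (1.66, 2.32 and 0.921 CPM against 11.5, 11.5 and 10.6) to 2.34 in MMTV-Neu (10.2, 27.5 and 11.3 against 10.0, 1.17 and 2.02). Apln, the ligand of the apelin receptor (chromosome X, 48025146 to 48034853), had -0.15 ± 0.113 and was lower in 14. It ranged from -2.26 in p53RB-626 to 2.65 in MMTV-Neu. In MMTV-Neu it was at 13.6, 50.1 and 13.8 CPM with trametinib and at 2.35, 5.41 and 2.95 with erlotinib, without overlap. Against untreated tumours of that model, Apln had a log2 difference of 1.03 with trametinib and -1.62 with erlotinib.

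**Figure D2:**
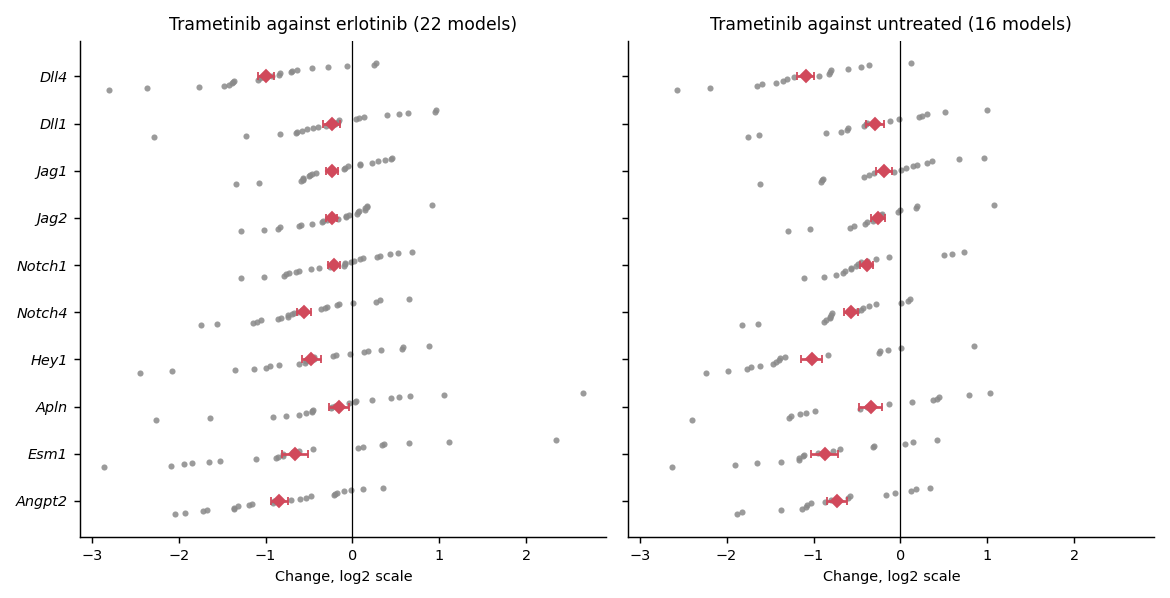
Log2 difference of each member with trametinib against erlotinib (22 models) and against untreated tumours (16 models). Grey points are models and red diamonds the edgeR estimate with its SE. Dll4 has nearly all its models left of 0 in both panels, and Apln and Esm1 have the widest spread.

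The members moved unevenly over the models. In p53RB-626, p53RB-624, KPB25L and 2336 all 10 were lower with trametinib than with erlotinib, with a median over the members of -1.66 in p53RB-626. In MMTV-PyMT 3 were lower and 7 higher (median 0.21), and in KPB1-B 4 and 6 (median 0.10). The median over members was also low in p53RB-426 (-1.37) and E0771 (-1.09).

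Against untreated tumours, over 48 trametinib and 54 untreated tumours of 16 models, Dll4 was again the member with the lowest value, and Hey1 came next to it. Dll4 ran from 2.81 to 20.0 CPM with trametinib (median 6.80) and from 6.27 to 37.5 untreated (median 15.0). It had a log2 difference of -1.09 ± 0.0989 and was lower in 15 of 16 models, with MMTV-PyMT the exception. Its arms separated with trametinib lower in 12 of 15 models, against 17.3% over all genes and models. Hey1 followed at -1.02 ± 0.119 (14 of 16 models), then Esm1 at -0.87 ± 0.152 (13), Angpt2 at -0.73 ± 0.112 (13) and Notch4 at -0.57 ± 0.0802 (13). Hey1 medians were 3.93 CPM with trametinib and 8.59 untreated. In p53RB-426 Hey1 was at 0.334, 0.452 and 0.462 CPM with trametinib against 2.24, 1.93 and 1.96 untreated, a low level in both arms. In T11-APOBEC it was at 2.78, 2.13 and 2.0 against 6.31, 8.51 and 8.84. The one model in which Hey1 separated upwards was 2153, at 32.9, 34.8 and 30.7 CPM with trametinib against 17.8, 18.4 and 18.2 untreated. Esm1 in p53RB-626 was at 0.979, 2.12 and 1.01 CPM with trametinib and between 2.54 and 18.4 in the 6 untreated tumours, which varied widely among themselves. Apln there was at 9.69, 8.60 and 6.19 against 24.4 to 62.0. The other 5 members had values from -0.39 (Notch1) to -0.19 (Jag1), and Jag1 was lower in 8 models and higher in 8. Below the threshold and lower were 9 members, beside 19.5% of 18014 genes. The choice of members used this contrast too, so that count is no result about them either. The comparisons with untreated tumours share those tumours, so the values stand side by side and were not correlated. The median of the members was -0.48. Dll4 was at -1.28 in the 8 models whose arms lie within 100 library numbers and at -0.92 in the 8 others, Hey1 at -1.37 and -0.72, and Notch4 at -0.82 and -0.36. The median of the 10 was -0.68 in the 8 models with close numbers and -0.31 in the others, and all 10 members were below 0 in both.

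Endothelial identity genes were lower in the same comparisons. Of the 17, 15 fell against erlotinib and none rose (median log2 difference -0.39). Against untreated tumours 11 fell and 1 rose (median -0.41). In the 22 models with both inhibitors, their mean log2 CPM ran from 1.97 to 4.78 over trametinib tumours (median 3.17). Over erlotinib tumours it ran from 2.04 to 4.92 (median 3.69). In the 16 models with untreated tumours, it ran from 2.30 to 5.40 over these (median 3.93). The medians in those 16 models were 3.16 with trametinib and 3.92 with erlotinib. None of the 17 genes was at 0 in any tumour. Cdh5, the adhesion protein of endothelial junctions, fell by 0.73 against erlotinib (edgeR adjusted p = 2.31e-10, lower in 19 of 22 models). Other cell types moved too: 9 of 10 fibroblast markers rose and 6 of 10 macrophage markers fell against erlotinib. Against untreated tumours 9 of 10 fibroblast markers rose, 3 of 10 macrophage markers fell, and all 12 proliferation genes fell (median -0.60). Over all genes, 12.5% fell and 12.9% rose against erlotinib, and 19.5% fell and 17.4% rose against untreated tumours. Far fewer genes passed with 1 difference per model as the unit (limma). Against erlotinib 163 of 16778 genes then rose and 231 fell, and against untreated tumours 729 of 18014 rose and 830 fell. The lists were not counted in that setting. The part of these lists in the members' values was not tested.

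Each member was therefore also measured against the mean of those 17 genes in the same tumour. Dll4 stayed lower: the difference relative to the endothelial mean was -0.57 ± 0.117 against erlotinib (SE over 22 models, 19 lower) and -0.68 ± 0.116 against untreated (15 of 16 lower). Angpt2 was at -0.39 ± 0.174 and -0.29 ± 0.168, and Notch4 at -0.13 ± 0.107 and -0.19 ± 0.121. Hey1 was at -0.05 ± 0.169 against erlotinib and -0.61 ± 0.147 against untreated. Esm1 was at -0.19 ± 0.268 and -0.46 ± 0.150. Dll1, Jag1, Jag2, Notch1 and Apln had relative values above 0 in both comparisons, between 0.05 and 0.28. With Pecam1, Cdh5 and Emcn alone as the yardstick, the Dll4 values were -0.37 ± 0.0966 and -0.47 ± 0.101. Those of Angpt2 were then -0.20 ± 0.161 and -0.09 ± 0.167, and those of Notch4 0.07 ± 0.0946 and 0.01 ± 0.156. Hey1 was at 0.14 ± 0.155 against erlotinib and -0.41 ± 0.167 against untreated, and Esm1 at 0.00121 ± 0.246 and -0.26 ± 0.139. A change of yardstick changes only the subtracted mean, so every member, Dll4 included, moved up by the same amount within a comparison. Dll4 and Angpt2 stayed below 0, Angpt2 against untreated tumours by less than its SE. Notch4 crossed 0 in both comparisons, and Hey1 and Esm1 did against erlotinib. With the endothelial mean as a covariate in the edgeR fit, all 10 members were below 0 in both comparisons. Dll4 was at -0.69 ± 0.0816 and -0.79 ± 0.0878, Angpt2 at -0.66 ± 0.111 and -0.49 ± 0.117, Notch4 at -0.27 ± 0.0707 and -0.37 ± 0.0795, Hey1 at -0.39 ± 0.117 and -0.82 ± 0.130, and Esm1 at -0.59 ± 0.167 and -0.56 ± 0.163.

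**Figure D3:**
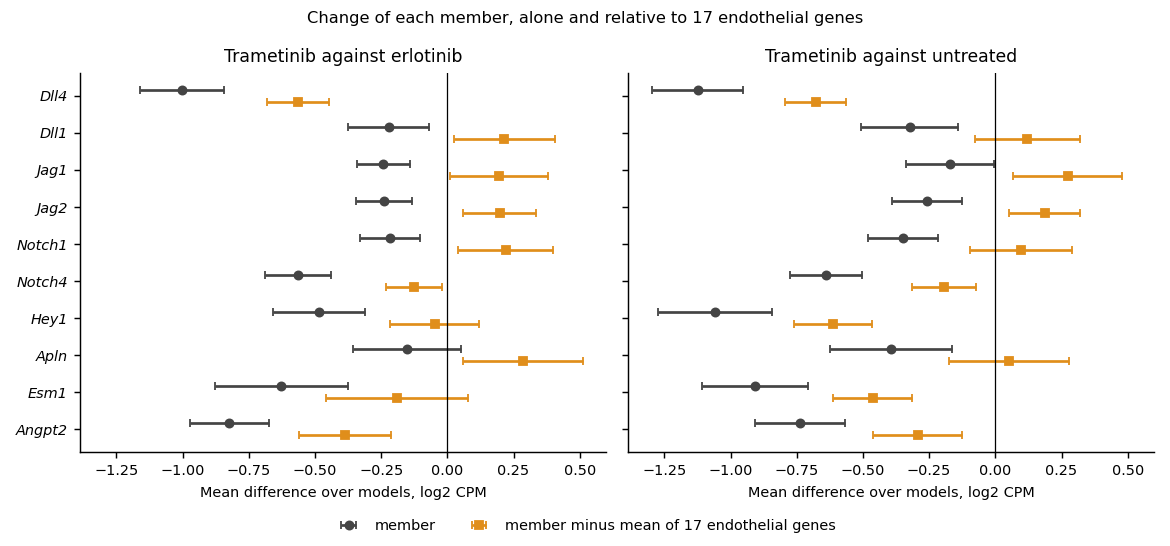
Mean difference over models for each member (dark circles) and for the member minus the mean log2 CPM of 17 endothelial genes (orange squares), with trametinib against erlotinib (left) and untreated (right). Bars are the SE over models. Dll4 remains at -0.57 and -0.68 relative to the endothelial genes, and Notch4 lies at -0.13 and -0.19.

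In the wider Notch pathway, genes were called in both directions. Of 16 tested genes of the transcription complex and its targets, 6 fell and 2 rose against erlotinib (median log2 difference -0.07). Over all genes, 12.5% were lower and 12.9% higher. Nrarp, a Notch-induced ankyrin protein that dampens the signal, fell by 0.69 (edgeR adjusted p = 1.14e-09, lower in 18 of 22 models), from a mean of 24.8 to 16.5 CPM. Heyl fell by 0.50 (edgeR adjusted p = 2.32e-05) and Rbpj by 0.20 (edgeR adjusted p = 0.00282). Against untreated tumours 6 fell and 3 rose, beside 19.5% of all genes lower and 17.4% higher. Among those that fell were Nrarp by 0.82 (edgeR adjusted p = 3.54e-11), Heyl by 0.76 and Hes1 by 0.32 (edgeR adjusted p = 0.000945).

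Of 18 processing genes, 3 rose and 3 fell against erlotinib, with a median of -0.01. These counts are near the shares over all genes, 12.9% higher and 12.5% lower. Mfng, a sugar transferase that tunes the receptor for its ligands, fell by 0.51 (edgeR adjusted p = 9.59e-06), Adam17 fell by 0.14, and Rfng rose by 0.15. Of the receptors outside the members, named because only these remain, Notch2 had -0.01 ± 0.0539 and Notch3 -0.10 ± 0.0708 against erlotinib, neither called. Against untreated tumours Notch3 fell by 0.33 (edgeR adjusted p = 0.00199).

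Of 14 VEGF, apelin and angiopoietin partners, 7 fell and 2 rose against erlotinib, beside 12.5% of all genes lower and 12.9% higher. The VEGF receptors Flt4 and Flt1 fell by 0.75 (edgeR adjusted p = 1.83e-11, 21 of 22 models) and 0.56 (edgeR adjusted p = 1.11e-10), and Tie1, a receptor of endothelium, by 0.55. Of 17 further tip cell genes, 12 fell and 2 rose. Lcp2 and Plaur fell by 0.56 and 0.54, whereas Rgcc rose by 0.59. Of 10 macrophage markers 6 also fell and 0 rose in this comparison, and which cells carried these changes was not tested. Genes of the hypoxia response, a known stimulus of tip cell genes, went the other way: 7 of 10 rose, none fell, with a median of 0.39. Of 18 genes of ERK output, 16 fell and none rose against either control. Dusp6, a phosphatase of ERK, fell by 0.70 against erlotinib and 1.27 against untreated tumours. These lists, like the members, were drawn up with earlier results of these data known.

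The remaining treatments, for which p-values are given, were also covered by the rule that named the members. Those p-values and counts of members are thus a description and no independent test. Erlotinib against untreated tumours changed 1 member, beside 5.74% of 17954 genes, 3.36% lower and 2.37% higher. Esm1 fell by 0.49 ± 0.151 (edgeR adjusted p = 0.0366) and was lower in 13 of 16 models, the largest difference being in MMTV-PyMT (-2.06). Without the term for the model the Esm1 value was 0.01 ± 0.406, and no member passed without KPB1-A, without KPB1-B, without MMTV-Neu or without MMTV-PyMT. In the 8 models whose arms lie within 100 library numbers the Esm1 value was -0.16 ± 0.202 (edgeR adjusted p = 0.819), and in the 8 others -0.78 ± 0.206 (edgeR adjusted p = 0.0141). Hey1 (-0.31 ± 0.116, edgeR adjusted p = 0.0917) and Apln (-0.31 ± 0.113, edgeR adjusted p = 0.0832) did not pass, and Dll4 had -0.04 ± 0.0740. The change differed between models for 7 members, beside 52.6% of all genes. In MMTV-Neu, Hey1 went from 395, 402 and 454 CPM untreated to 239, 20.8 and 118 with erlotinib, and Jag1 from 7.40, 6.46 and 4.75 to 10.3, 42.3 and 19.8. Both sets were without overlap, and the erlotinib tumours varied widely.

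Carboplatin plus paclitaxel against untreated tumours changed none of the 10 by edgeR, beside 24.2% of 18401 genes. Apln was the 1 member with an unadjusted p under 0.05 (log2 difference -0.30 ± 0.133, edgeR adjusted p = 0.0817). DESeq2 called 1 member lower, and limma called 1 member higher on the authors' normalized table. No member passed in the 5 models with close library numbers, where 0 of 17241 genes did, or in the 11 others, where 3011 genes of 18634 were higher and 2070 lower. In those 11 models, as a set, treatment and library number cannot be told apart. The change differed between models for 9 of 10 members, beside 46.3% of genes. Apln was at 5.12, 8.36 and 11.6 CPM in KPB1-A with chemotherapy against 47.6, 36.9 and 47.2 untreated, and its log2 difference was 0.69 in p53RB-624. Notch1 in MMTV-PyMT was at 359, 369 and 417 CPM against 130, 160 and 155 untreated, and in 2153 it was lower, with a log2 difference of -0.97. Dll4 ran from 5.29 to 42.4 CPM with chemotherapy (median 15.3), beside the untreated median of 15.0. Of the endothelial identity genes 11 of 17 rose, beside 14.2% of all genes called higher. Vwf, a clotting protein made by endothelium, was among them (1.13, edgeR adjusted p = 3.66e-06). With 1 difference per model as the unit (limma), 0 of the 18401 genes passed. Of 10 macrophage genes 6 rose (median of the list 0.48) and of 10 fibroblast genes 3 rose, and none of either list fell.

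With anti-PD1 plus anti-CTLA4, 3 members were higher than in untreated tumours in 12 models, beside 6.0% of 18371 genes called higher. None was lower, beside 4.8% called lower. The change differed between models for 5 members, beside 33.9% of genes. Angpt2 rose by 0.49 ± 0.115 (edgeR adjusted p = 0.00313) and was higher in 9 models, Apln by 0.45 ± 0.137 (edgeR adjusted p = 0.0226; 9 models) and Dll4 by 0.27 ± 0.0736 (edgeR adjusted p = 0.0110; 10 models). Angpt2 ran from 3.15 to 40.5 CPM with antibodies (median 22.8) and from 2.23 to 29.6 untreated (median 14.5). Its arms separated with antibodies higher in 7 of 11 models and in none with antibodies lower, beside 16.0% and 13.9% over all genes and models. In p53RB-626 Angpt2 was at 30.6, 28.9 and 33.1 CPM with antibodies and at 11.8 to 28.3 in the 6 untreated tumours. In MMTV-PyMT Apln was at 176, 62.5 and 90.8 CPM against 24.6, 21.0 and 23.2. In T12 Dll4 was at 44.3, 40.6 and 37.7 against 18.5, 25.3 and 28.5. These sets did not overlap. The endothelial list moved little, with 1 of 17 higher. Relative to it, Angpt2 was at 0.43 ± 0.150, Apln at 0.40 ± 0.207 and Dll4 at 0.21 ± 0.0772 (SE over 12 models). Vegfa, the main growth factor of vessels, rose by 0.48 (edgeR adjusted p = 0.00441), and 7 of 10 hypoxia genes rose. All 10 skeletal muscle genes fell (median -3.34). Their mean log2 CPM ran from -2.93 to 5.90 with antibodies and from -1.83 to 8.25 untreated. Without the 10% of tumours highest in muscle genes 3 members again passed, all higher. In 10 of the 12 models the arms lie 100 or more library numbers apart. There Angpt2 was at 0.42 (edgeR adjusted p = 0.00694), Dll4 at 0.26 (edgeR adjusted p = 0.0149) and Apln at 0.20 (edgeR adjusted p = 0.235). In these 10 models 2011 of 18397 genes were higher and 1940 lower, and treatment and library number cannot be told apart. In the 2 others no member passed, with Apln at 1.77, and 0 of 18066 genes did. Without p53RB-626, 1 member passed, and without C3-TAG 5 did, 4 of them higher and 1 lower. With 1 difference per model as the unit, no member passed (limma adjusted p of 0.421 to 0.542 for the 3), nor did any of the 18371 genes.

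Against carboplatin plus paclitaxel, in 16 models, the antibody arm was higher in 4 members, beside 8.28% of 18705 genes called higher, and lower in none, beside 9.78% called lower. Apln differed by 0.73 ± 0.123 (edgeR adjusted p = 2.53e-05, higher in 14 of 16 models), Esm1 by 0.63 ± 0.166 (edgeR adjusted p = 0.00444; 12), Angpt2 by 0.38 ± 0.0994 (edgeR adjusted p = 0.00447; 14) and Dll4 by 0.31 ± 0.0734 (edgeR adjusted p = 0.00187; 14). No untreated tumour enters this comparison. In most of its models, KPB1-A among them, the antibody and chemotherapy arms lie more than 100 library numbers apart, and in the others they lie close. Models were not split by library number here, so treatment and library number cannot be told apart in the models with distant arms. In KPB1-A Apln was at 68.9, 40.6 and 82.0 CPM with antibodies, above the chemotherapy values given earlier. Esm1 in the same model was at 27.9, 19.4 and 31.5 CPM with antibodies, 3.38, 4.01 and 6.36 with chemotherapy and 14.4, 9.33 and 13.7 untreated, so the 3 arms did not overlap. Vegfa rose by 0.69 (edgeR adjusted p = 0.000119) and 9 of 10 hypoxia genes rose, while 5 of 17 endothelial genes fell and 1 rose. All 10 muscle genes fell (median -2.30), as did 6 of 10 fibroblast, 6 of 10 macrophage and 5 of 7 adipocyte genes, and 6 of 12 proliferation genes rose. Without the tumours highest in muscle genes 4 members again passed, all higher, and the part of the other lists in the result was not tested. With 1 difference per model as the unit none passed, with limma adjusted p of 0.2 to 0.279 for the 4, nor did any of the 18705 genes.

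**Figure D4:**
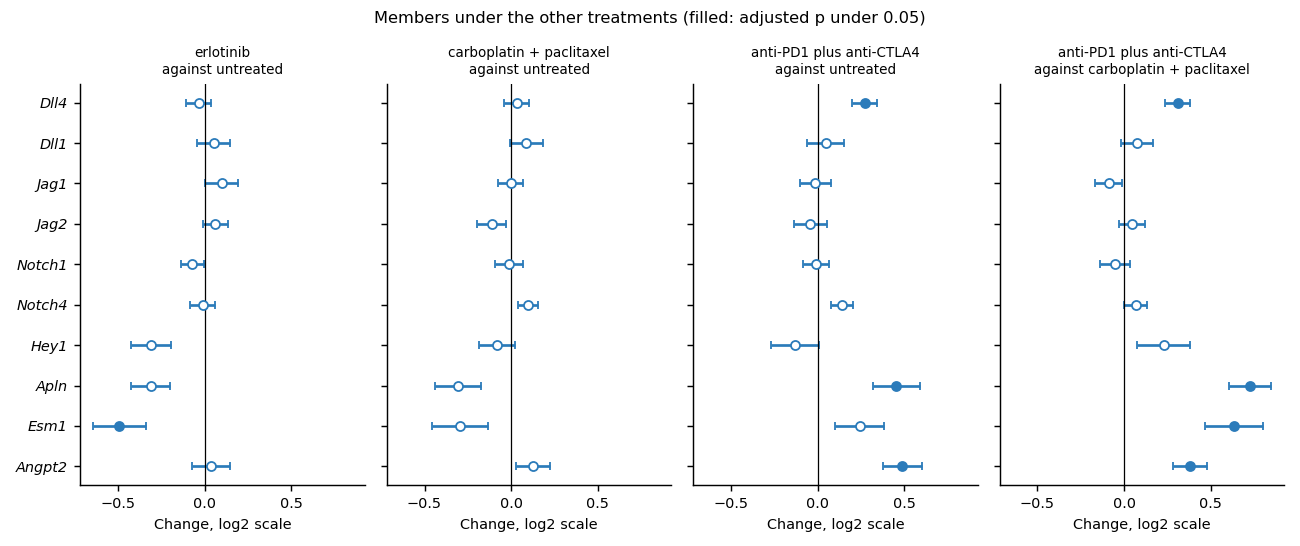
Log2 difference of each member under the treatments other than trametinib, with the SE of the edgeR fit. Filled points have an adjusted p under 0.05. Filled points are Esm1 with erlotinib and, higher with antibodies, Dll4, Apln and Angpt2 against untreated and those with Esm1 against chemotherapy.

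In untreated tumours all 10 members differed between the 16 models with at least 3 tumours (62 tumours), beside 98.1% of 22779 genes, so the size of the difference says more than the call. Dll4 and Angpt2 spanned least. Dll4 ran from 8.43 ± 0.774 CPM (SD, n = 4) in C3-TAG to 32.1 ± 4.83 (SD, n = 3) in KPB25L, a 3.80-fold range, and 14 of 15 neighbours in that order overlapped. Angpt2 spanned 5.90-fold, from 2208 to T11-APOBEC, with all 15 neighbouring pairs overlapping. Notch1 spanned 6.90-fold, Apln 7.16-fold, Notch4 8.26-fold and Jag1 13.2-fold.

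Hey1 spanned 302-fold. It was at 417 ± 32.1 CPM (SD, n = 3) in MMTV-Neu and 188 ± 34.1 (SD, n = 3) in MMTV-PyMT, and at 22.8 or less in the other 14 models, down to 1.38 ± 0.532 (SD, n = 9) in K14-TRT. Jag2 was highest in KPB1-A (398 ± 57.4, SD, n = 3) and KPB1-B (200 ± 55.3, SD, n = 6), and 56.9 or less elsewhere, a 98.0-fold range over all models. Dll1 ran from 2.29 in T11-APOBEC to 173 in KPB1-B. Its 7 lowest models (T11-APOBEC, K14-TRT, T12, p53RB-626, T11, p53RB-624 and p53RB-426) had means of 6.92 or less, without overlap with the next model.

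Esm1 was highest in T12 (180 ± 36.4, SD, n = 3), T11 (84.8 ± 64.8, SD, n = 4) and T11-APOBEC (63.5 ± 18.9, SD, n = 3), and 18.6 or less in the other 13 models. Notch4 was at 96.6 ± 16.6 (SD, n = 3) in T12, without overlap with KPB25L below it (48.0 ± 5.95, SD, n = 3). In T12 the Esm1 tumours with trametinib held 108, 153 and 178 CPM, beside 139 to 210 untreated, and overlapped them.

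**Figure D5:**
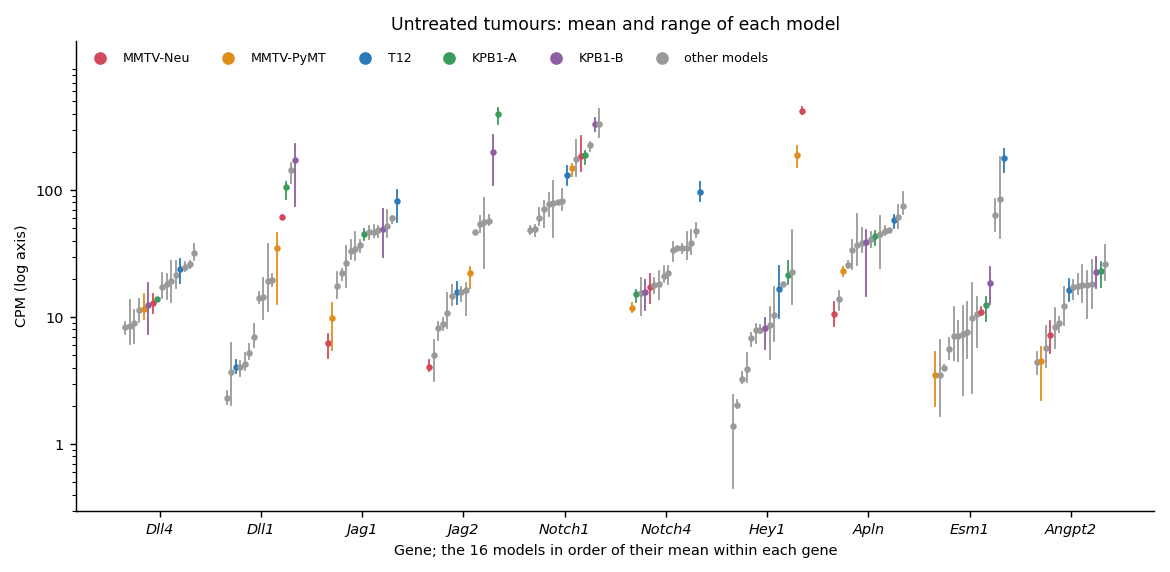
Levels of the members in untreated tumours of 16 models in CPM (log axis). Points are model means, lines the range over tumours, and models are in order of their mean within each gene. MMTV-Neu and MMTV-PyMT stand apart for Hey1, KPB1-A and KPB1-B for Jag2, and T12 for Notch4. T12 is also highest for Esm1, where its range overlaps that of T11.

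Tumours of the same model and treatment also varied among themselves. After subtraction of group means, over 307 tumours, Notch4 went most with Cdh5 (Pearson r = 0.69), Robo4 (0.66) and Plxnd1 (0.65), and Dll4 with Cdh5 (0.61), Kcnq1 (0.58) and Pcdh12 (0.58). Dll4 and Notch4 had r = 0.62 with each other. Their r with the mean of the 17 endothelial genes was 0.46 for Dll4, 0.59 for Notch4 and 0.39 for Angpt2, and from -0.17 to 0.14 for the other 7 members. Esm1, Apln and Angpt2 had r of 0.39, 0.38 and 0.36 with the hypoxia list. These values describe tumours whose genes share a library, depth and cell mixture.

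Angpt2 went most with Eno2 (0.53), a glycolytic enzyme, Adgrf5 (0.52) and Robo4 (0.51). Apln went with P4ha1 (0.42) and Pgf (0.40), and Esm1 with Igfbp3 (0.45), Kit (0.44) and Pik3r1 (0.44). The closest genes of the other members were Nck2, Ano1 and Erbb2 for Dll1 (0.62 to 0.58), Inhba, Has2 and Dgkh for Jag1 (0.62 to 0.57) and Sema3f, Ajuba and Orai2 for Jag2 (0.62 to 0.55). For Notch1 they were Ptprf, Bcor and Ago1 (0.73 to 0.72), and for Hey1 Emid1, Trf and Rassf3 (0.61 to 0.55).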

How the data were processed

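Poly(A) RNA from 309 mouse mammary tumours had been sequenced by the authors, and their deposited table of estimated counts per gene symbol was used, in which 8.35% of values were not whole. Per the submitters' processing notes, STAR, SAMtools, Picard and Salmon were used with the build mm10, with no versions given there. The deposited table of normalized signal equals each count divided by the upper quartile (percentile 75) of the library's values above 0, times 1000. Counts were rounded and tested with edgeR 4.0.16 in R 4.3.3 (quasi-likelihood test, TMM scaling, filterByExpr, a term for the model), with Benjamini-Hochberg adjustment over all tested genes and a threshold of 0.05. Levels are log2 CPM with a prior count of 2. The edgeR p-values of the treatment comparisons measure the spread left after a term for the model. That spread holds differences between tumours of a group and differences in response between models. In the tests of treatment by model and between untreated models, they measure the spread between tumours of a group. The labels do not describe tumours of a group as separate experiments. The edgeR test of trametinib against erlotinib was tried on simulated counts, with the same change in every model. It recovered 100% of changes of log2 size 1 and 82% of those of size 0.5, and 3.7% of calls were false. Differences in response between models were not simulated, and the other tests were not tried in this way. Alternatives were RLE scaling, no filter, no model term, DESeq2 1.42.0, limma 3.58.1 on the signal table (log2 of the value plus 1), each replicate or model left out, 1 difference per model as the unit, an endothelial covariate, the 10% of tumours highest in muscle genes left out, and models split at 100 library numbers. The use of adjacent untreated tumours alone was chosen after seeing the data.

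The members and lists were chosen with earlier results of these data known. Genes outside the members are named by a rule: at most the 3 with the smallest p in each list and comparison, and the 3 with the highest correlation to each member, of which 1 for Apln is not reported here. Exceptions are Notch2 and Notch3. Positions are from GENCODE M21 and promoters from RefSeq. The 15 lists also held adipocyte, epithelial, mural and proliferation genes. Against erlotinib, trametinib raised 0 of 7 tested adipocyte, 1 of 12 epithelial, 2 of 10 mural and 0 of 12 proliferation genes, and lowered 0, 1, 5 and 3. Against untreated tumours it raised 4 of 8, 0, 3 and 0, and lowered 0, 2, 5 and 12. The shares over all genes were 12.9% higher and 12.5% lower against erlotinib, and 17.4% and 19.5% against untreated tumours.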

Additional observations from a re-analysis of the deposited data

Results flagged for a closer look

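In 5 untreated groups of 4 to 9 tumours, 50 gene and group pairs were examined for a tumour far from the rest (gap to the nearest tumour over the range), of which chance gives about 5%. Hey1 in C3-TAG had a ratio of 0.855, with 1 tumour at 48.7 CPM. Hey1 in K14-TRT had 0.5 with a tumour at 0.454 CPM, and Apln there 0.521 with one at 65.4. Hey1 in KPB1-B had 0.649 with a tumour at 5.60 CPM. Jag2 in T11 had 0.927 with a tumour at 10.4 CPM.

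The change differed between models by an F-test of treatment by model terms (edgeR adjusted p). With erlotinib these were Dll4 0.0204, Jag1 9.97e-07, Notch1 0.00781, Notch4 0.00295, Hey1 0.00739, Apln 9.85e-08 and Angpt2 0.00729. Jag1 ran from -1.12 in KPB1-B to 1.75 in MMTV-Neu on the log2 scale, and Hey1 from -2.31 in MMTV-Neu to 0.53 in 2153. With carboplatin plus paclitaxel they were Dll4 0.0192, Dll1 0.0180, Jag1 0.0438, Jag2 0.0229, Notch1 0.000258, Hey1 0.0361, Apln 1.21e-06, Esm1 0.0115 and Angpt2 0.0167. Apln ran from -2.45 in KPB1-A to 0.69 in p53RB-624, and Notch1 from -0.97 in 2153 to 1.37 in MMTV-PyMT. With anti-PD1 plus anti-CTLA4 they were Jag1 0.0374, Notch1 0.000675, Hey1 0.00216, Apln 5.11e-05 and Angpt2 0.0266, beside 33.9% of 25562 genes. Apln ran from -0.79 in KPB1-B to 2.13 in MMTV-PyMT, and Hey1 from -1.37 in T12 to 1.17 in C3-TAG, where the 3 antibody tumours held 25.2, 22.2 and 143 CPM and 4 untreated tumours 12.7 to 48.7. These models hold mostly 3 tumours an arm, and 1 tumour can set a model's value.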

How the results depend on the processing

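With trametinib, the median of the members stayed below 0 and all 10 members were below 0 in every alternative run, from -0.41 without 4T1 to -0.20 with no term for the model against erlotinib, and from -0.68 in models with close library numbers to -0.31 in the others against untreated tumours. Of the other counts, erlotinib's 1 member became 0 with no filter, with no model term, without the tumours highest in muscle, in models with close library numbers, with adjacent untreated tumours alone, with 1 difference per model as the unit, and without any 1 of KPB1-A, KPB1-B, MMTV-Neu or MMTV-PyMT. It became 2 in models with distant numbers, with DESeq2 and without any 1 of 2153, C3-TAG, E0771, KPB25L-UV, p53RB-624 or p53RB-626, 3 on the authors' table with limma, and 0 to 1 without a replicate. Esm1 with erlotinib reversed to 0.00763 with no model term. Chemotherapy's 0 became 1 on the authors' table (higher), and 1 with DESeq2, without KPB25L-UV and without p53RB-624 (each lower). The 3 members higher with antibodies became 0 with no model term, in close models, with adjacent untreated tumours and with 1 difference per model, 1 without p53RB-626, 5 (4 higher and 1 lower) without C3-TAG and 1 to 2 without a replicate. The 4 against chemotherapy became 0 with no model term and with 1 difference per model, and 1 to 4 without a replicate. Members whose change differed between models fell without a replicate from 5 to 2 to 3 (antibodies), from 9 to 2 to 6 (chemotherapy) and from 7 to 3 to 7 (erlotinib). Leaving out replicates leaves fewer samples, and otherwise the cause was not tested. All 10 members differed between untreated models in every alternative run. No paired analysis was possible because replicate numbers were given in order of accession and pair no tumours. Library totals differed between arms, with medians of 34.3 M to 113 M, and no member was at 0 in any library.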

Other observations

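KPB25L-APOBEC had 1 untreated tumour and entered no test between untreated models. It held Dll4 at 39.3 CPM, above the mean of each of the 16 models tested, and Notch4 at 57.0 CPM. Dll1 was at 12.6, Jag1 at 51.9, Jag2 at 55.1, Notch1 at 47.8, Hey1 at 22.0, Apln at 16.9, Esm1 at 9.63 and Angpt2 at 7.32 CPM.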
